A study of Mus musculus with 2 samples.

Results

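The MHC class II genes were followed through cells from the livers and spleens of BALB/c mice with 4T1 liver metastases treated with CBL0137, a small molecule that destabilises chromatin, or with vehicle. The set holds the 10 gene rows of the count matrices with the symbols H2-Aa, H2-Ab1, H2-Eb1, H2-DMa, H2-DMb1, H2-DMb2, H2-Oa, H2-Ob, Cd74 and Ciita, out of 32285 gene rows in all. The genes were chosen by name and not by their levels, and all 10 had UMIs (unique molecular identifiers, each counting 1 captured RNA molecule) in both libraries. The strain was BALB/cAnNCrl, all mice carried 4T1 tumor cells (a mouse mammary carcinoma line) placed in the liver through a hemisplenectomy, and cells were taken 5 days after hepatic arterial infusion of vehicle or of CBL0137 at a low or a high dose. The amounts behind low and high were not known here. Cells of 2 mice were pooled per treatment, each treatment was stained with its own hashtag antibody (A0301 for vehicle, A0305 for the low dose, A0310 for the high dose), and the 3 treatments of an organ were loaded as 1 library. Each hashtag group of a library is thus 1 pooled sample. No test between treatments was possible. Every interval below is an exact 95% interval that covers counting error only, not the spread between cells or between mice.

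The organ labels went against the data. The liver-labelled library held 0.233 UMIs per 1000000 of hepatocyte markers, 16.6 of Kupffer cell markers (the resident macrophages of the liver) and 53.5 of endothelial markers. The spleen-labelled library held 111, 672 and 602, and the names of the deposited files also cross the 2 organs. The libraries are therefore called liver-labelled and spleen-labelled throughout. They held 8435 and 2988 cells with a single hashtag, of 9591 and 4830 barcodes, with 15 barcodes in common, and the median cell of a hashtag group had 4497 to 7930 UMIs. The labels describe leukocytes from a density gradient. The study names leukocytes too, while its single-cell methods start from cells isolated with CD11b beads, so which of these was loaded is not settled here. B cell-like and T cell-like cells, which are not defined by CD11b, numbered 1627 and 2477 in the liver-labelled library and 131 and 175 in the spleen-labelled library.

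MHC class II molecules present peptides from endocytosed proteins to CD4+ T cells. H2-Aa and H2-Ab1 encode the paired chains of I-A, and H2-Eb1 encodes the beta chain of I-E. Cd74, the invariant chain, occupies the peptide groove and guides new complexes to endosomes, where cathepsins cut it down. H2-DM (H2-DMa with H2-DMb1 or H2-DMb2) then exchanges the remaining fragment for peptides, and H2-O (H2-Oa with H2-Ob) inhibits H2-DM. Ciita is the main transcriptional coactivator of class II genes. Dendritic cells and B cells express class II constitutively, while macrophages and other cells acquire it largely through interferon gamma. No row of either matrix carried the symbol of an alpha chain of I-E, which was not analysed here.

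In the GRCm38 annotation (mm10), 8 of the genes lie together on chromosome 17. H2-Oa at chr17:34092340-34095234, H2-DMa at chr17:34119541-34139101, H2-DMb2 at chr17:34143307-34151555, H2-DMb1 at chr17:34153072-34160230, H2-Ob at chr17:34238903-34254414, H2-Ab1 at chr17:34257689-34269419 and H2-Eb1 at chr17:34305867-34316674 are on the plus strand, and H2-Aa at chr17:34282744-34287823 is on the minus strand. Ciita is at chr16:10480059-10528418 on the plus strand, and Cd74 lies on another chromosome.

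The promoters are shown because the members share letters that the choice of genes did not use. Class II promoters are known for an X box, bound by the RFX complex, followed at a fixed distance by a Y box, an inverted CCAAT box bound by NF-Y, and Ciita is recruited to both. The RefSeq promoter table (GRCm38.p6, from 250 bases before to 50 after the transcription start, of the C57BL/6J reference and not of BALB/c) held 8 promoters of 7 members. H2-Ab1, Cd74 and Ciita were not matched. The letters searched on both strands were AACNNATG for the X box and GATTGG for the Y box, both chosen with these promoters in view. AACNNATG was in 8.86% and GATTGG in 16.1% of all 32851 promoters. The pair on 1 strand with 18 to 26 bases between was in 12 promoters (0.0365%), of which H2-Eb1, H2-DMb1, H2-DMb2 and H2-Ob are members and H2-Eb2 is a further class II beta chain gene of the same cluster. The other 7 promoters were those of AU016765, BC051142, Dnah6, Dpm1, Gm20716, Mocs3 and Olfr76. The bases between the 2 boxes were 21 in H2-Eb1, 22 in H2-DMb1 and H2-DMb2, and 19 in H2-Ob. A match is a description of letters, not of binding. Below are 3 of the paired promoters, then H2-Aa, which held GATTGG without AACNNATG, each 119 bases from 134 to 16 before the start, with the matches in capitals.
H2-Eb1, chr17:34305733-34305851, plus strand: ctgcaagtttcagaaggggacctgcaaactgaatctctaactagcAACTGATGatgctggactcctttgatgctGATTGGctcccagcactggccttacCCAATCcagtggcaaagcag
H2-DMb2, chr17:34145115-34145233, plus strand: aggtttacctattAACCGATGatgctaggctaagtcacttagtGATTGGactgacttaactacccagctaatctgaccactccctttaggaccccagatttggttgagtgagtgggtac
H2-Ob, chr17:34238771-34238889, plus strand: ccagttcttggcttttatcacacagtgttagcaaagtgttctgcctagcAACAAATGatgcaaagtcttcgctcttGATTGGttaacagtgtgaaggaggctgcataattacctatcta
H2-Aa, chr17:34287839-34287957, minus strand: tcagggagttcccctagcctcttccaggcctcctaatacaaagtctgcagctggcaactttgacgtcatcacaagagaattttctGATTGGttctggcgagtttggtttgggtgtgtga
The distal match comes first in each paired line and the Y box match lies nearer the start. H2-Eb1 held a further Y box match on the opposite strand, printed as CCAATC. The promoter of H2-Oa and 1 of the 2 promoters of H2-DMa also held the Y box letters without the pair.

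Cells were grouped into classes by clustering without the 10 members, and a class was named from lists of marker genes, so each name below stands for cells like the named type. Of the listed markers, 8 to 13 of 13 stood higher in the B cell-like clusters, 10 to 17 of 18 in the macrophage-like, 8 and 9 of 12 in the monocyte-like, 14 of 14 in the endothelial-like and 5 of 11 in the tumor-like clusters. Summed over the 10 genes and all cells of a class, conventional dendritic cell-like cells held the highest class II level in both libraries. In the liver-labelled library they held 43794 UMIs per 1000000 UMIs of the same cells (CPM), B cell-like cells 21827, macrophage-like cells 4508 and monocyte-like cells 2159. The order was the same in the spleen-labelled library, with 24847, 21584, 10464 and 3244 CPM. There, plasmacytoid dendritic cell-like cells held 7703 CPM, endothelial-like cells 2275 and 4T1 tumor-like cells 1003. The counting intervals of neighbours in this order did not overlap in either library. Macrophage-like cells of the liver-labelled library also held 3212 CPM of T cell markers. The 125 of these 184 cells without a T cell marker UMI held 9109 CPM of class II. By the median cell the order at the top of the spleen-labelled library was another one, with 237 class II UMIs per 10000 in B cell-like, 69.5 in plasmacytoid and 44.6 in conventional dendritic cell-like cells, of which 17 of 177 held as many class II UMIs as the rest. T cell-like cells, which serve here as background, held 159 CPM in the liver-labelled library and 462 in the spleen-labelled library, and neutrophil-like cells 153 and 145. The makeup of that background differed from B cell-like cells. In vehicle T cell-like cells of the liver-labelled library, H2-O had 59 and H2-DMa 62 of 512 class II UMIs. In vehicle B cell-like cells they had 799 and 841 of 46233. Whether T cell-like cells made part of these UMIs was not tested, so this background may be set too high.

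**Figure D1:**
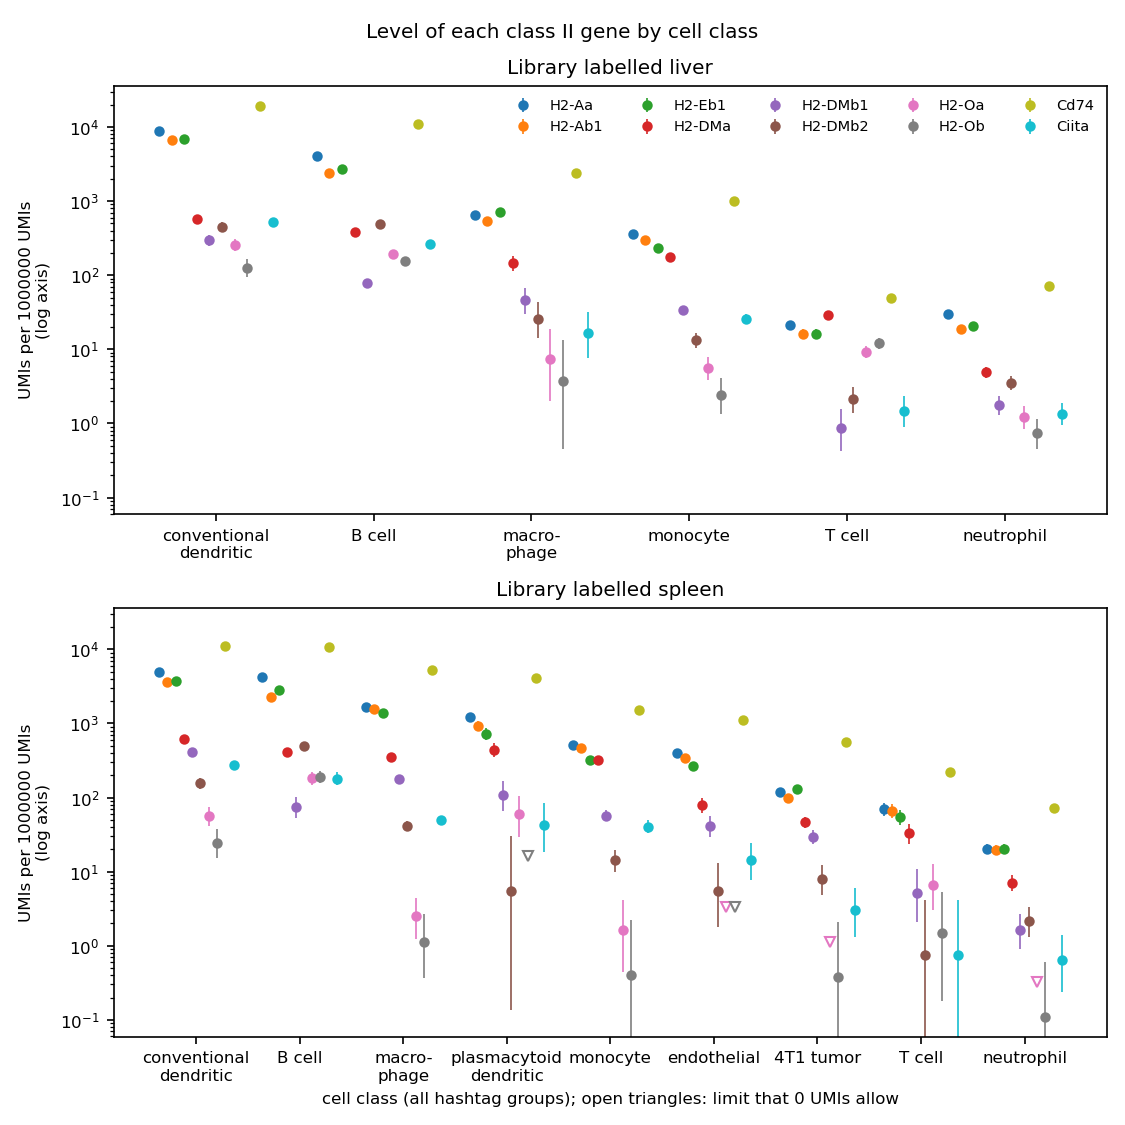
Level of each of the 10 genes (vertical log axis, UMIs per 1000000 UMIs) by cell class over all hashtag groups, 1 panel per library, with exact 95% Poisson intervals and open triangles at the limit that 0 UMIs allow. Cd74 lay highest in every class drawn, from 19113 CPM in conventional dendritic cell-like cells of the liver-labelled library to 49.9 CPM in its T cell-like cells.

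The classical chains and the invariant chain set this order. H2-Aa stood at 8731 CPM in conventional dendritic cell-like cells of the liver-labelled library, 4018 in its B cell-like, 648 in its macrophage-like and 359 in its monocyte-like cells, against 21.5 in its T cell-like cells. Ciita too stood highest in conventional dendritic cell-like cells, at 527 CPM in the liver-labelled library and 271 in the spleen-labelled library, followed by B cell-like cells at 260 and 180. It was at 25.7 and 40.5 CPM in monocyte-like cells and at 16.6 and 50.1 CPM in macrophage-like cells, the value of 16.6 resting on 9 UMIs. A level in CPM was not divided by transcript length, and levels of different genes are compared below only as shares of UMIs.

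Cd74 carried about as many class II UMIs as the other 9 genes together in the classes of antigen-presenting, endothelial and tumor-like cells, between 43.6% in conventional dendritic cell-like cells of the liver-labelled library and 56.6% in 4T1 tumor-like cells. The inhibitory chains separated the classes more sharply. H2-Oa and H2-Ob made up 27.0% (95% interval 26.0 to 28.0) of the UMIs of H2-O and H2-DM together in B cell-like cells of the liver-labelled library and 27.5% (24.3 to 30.9) in those of the spleen-labelled library. In macrophage-like cells the share was 4.84% (1.80 to 10.2) and 0.623% (0.356 to 1.01), and in monocyte-like cells 3.43% (2.52 to 4.55) and 0.517% (0.168 to 1.20). Conventional dendritic cell-like cells held 22.7% (19.7 to 25.8) in the liver-labelled library, where H2-Oa and H2-Ob stood at 259 and 126 CPM against 196 and 156 in B cell-like cells, and 6.37% (5.02 to 7.96) in the spleen-labelled library. The latter class was mixed, since 117 of its 177 cells joined a macrophage-like cluster at a finer clustering. The share was 1.41% (0.171 to 5.00) in those 117 cells and 6.72% (5.24 to 8.47) in the 47 that kept the dendritic name. Endothelial-like cells had no H2-O UMI.

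The 2 beta chains of H2-DM also parted by class. H2-DMb2 made up 86.2% (84.9 to 87.4) of the H2-DMb1 and H2-DMb2 UMIs in B cell-like cells of the liver-labelled library and 87.0% (82.7 to 90.6) in those of the spleen-labelled library. The share was 60.4% (55.0 to 65.7) and 27.8% (23.9 to 31.9) in conventional dendritic cell-like cells, 35.9% (21.2 to 52.8) and 18.8% (16.4 to 21.3) in macrophage-like cells, and 28.3% (22.9 to 34.0) and 20.0% (14.3 to 26.7) in monocyte-like cells. The order from B cells down to macrophages held in both libraries. H2-DMb1 and H2-DMb2 are close copies of each other, and how reads were split between them upstream was not tested.

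**Figure D2:**
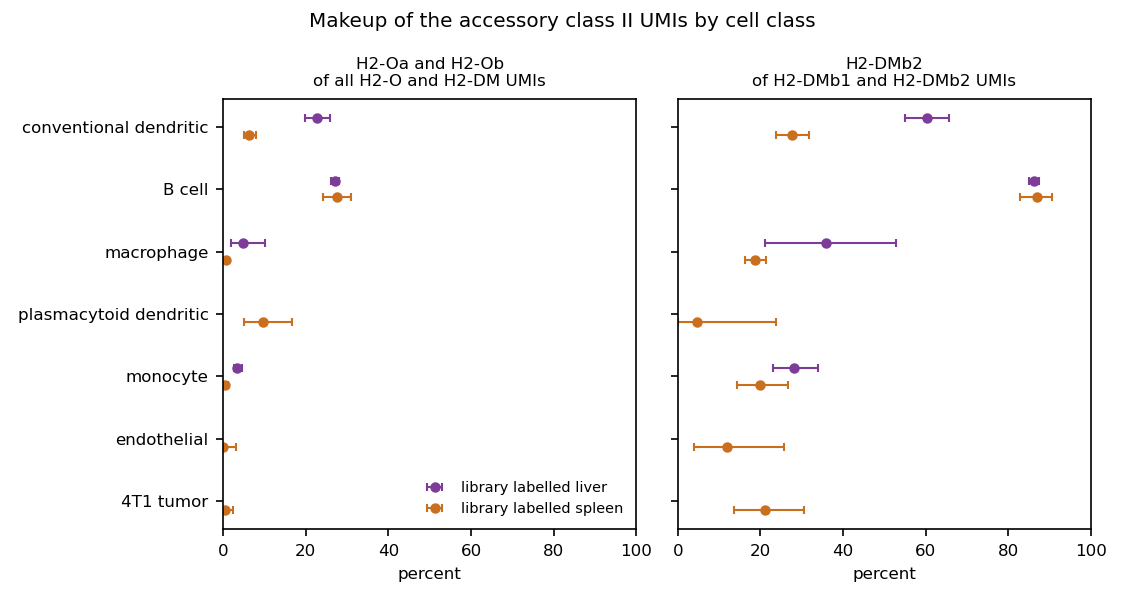
Share of H2-O in the UMIs of H2-O and H2-DM (left) and of H2-DMb2 in the UMIs of H2-DMb1 and H2-DMb2 (right), in percent, by cell class and library over all hashtag groups, with exact 95% binomial intervals. B cell-like cells sat at 27.0% and 27.5% on the left and at 86.2% and 87.0% on the right, above the other classes in both panels.

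Cells of 1 class did not share the set evenly. Among the 1627 B cell-like cells of the liver-labelled library, 406 (25.0%) held as many class II UMIs as all the rest, so the signal was spread over the class. Among its 281 monocyte-like cells, 11 (3.91%) held as many as the rest, and the median cell had 4 class II UMIs. Its 184 macrophage-like cells reached that point with 7 cells, and the 281 macrophage-like cells of the spleen-labelled library with 33. Depth alone sets part of any share of cells with a UMI, so each cell was also thinned to 500 UMIs. A class II UMI then remained in 88.9% of B cell-like cells, 100% of conventional dendritic cell-like cells, 58.2% of macrophage-like cells and 24.2% of monocyte-like cells of the liver-labelled library, against 6.02% of its T cell-like cells. Without thinning the shares were 91.0%, 100%, 81.5%, 92.5% and 38.7%, at median depths of 3226, 9797, 1531, 16026 and 4820 UMIs. The thinned shares of the spleen-labelled library were 95.4%, 65.5%, 71.5% and 34.4% in the same order, against 12.6% of T cell-like cells, and 97.7%, 77.4%, 96.4%, 89.0% and 44.6% without thinning.

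**Figure D3:**
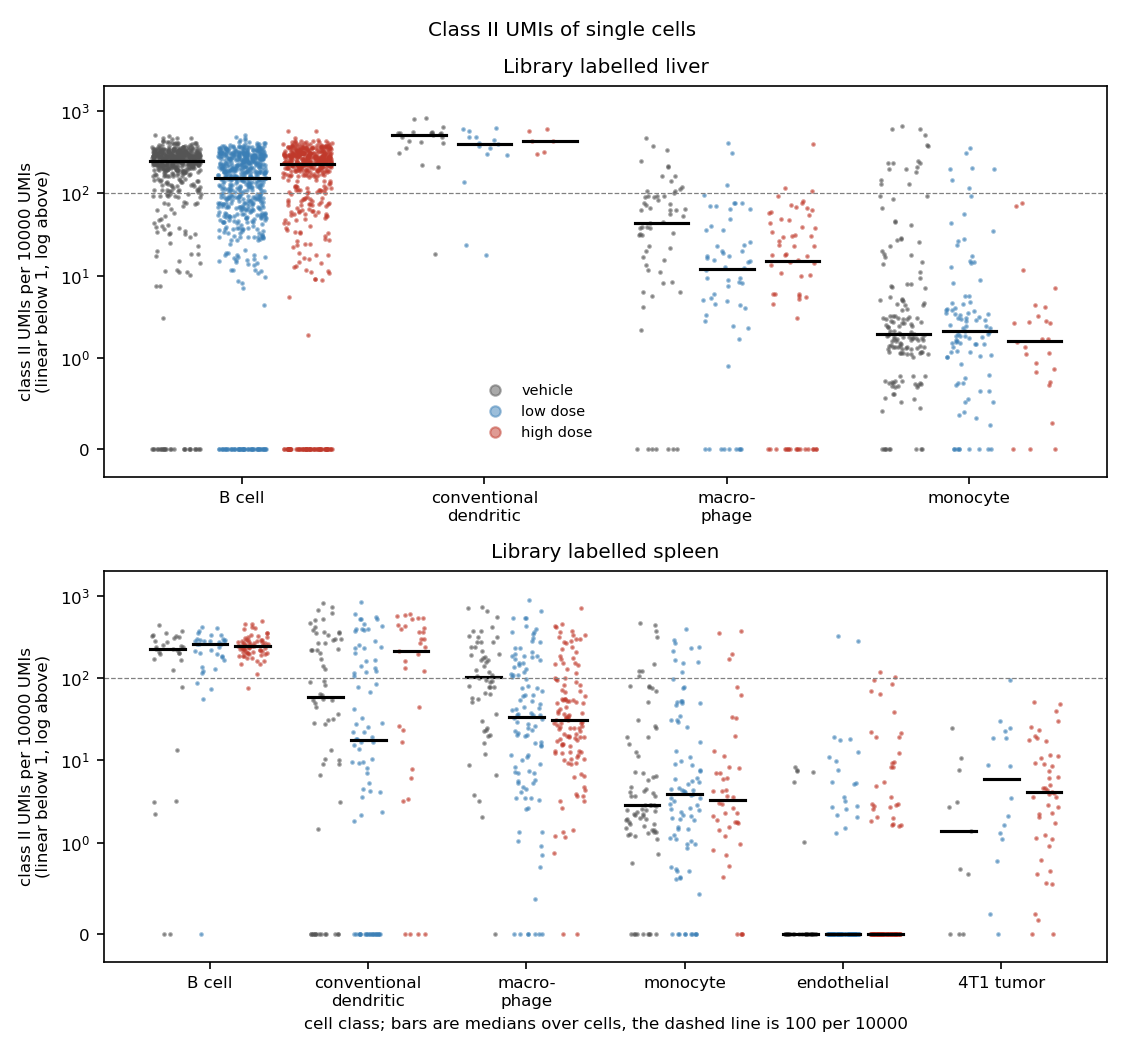
Class II UMIs per 10000 UMIs of each cell (vertical axis, linear below 1 and log above) by cell class and hashtag group, 1 panel per library, with black bars at the median over cells and a dashed line at 100 per 10000. B cell-like cells had medians of 152 to 256 with a tail of lower cells, the lower quartile being 56.1 at the low dose of the liver-labelled library, while monocyte-like cells had medians of 1.62 to 3.89 with a few cells above 100.

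To describe the cells that held most class II, a limit of 100 class II UMIs per 10000 UMIs was set after the values had been seen, so it marks a range and not a cell type. Of the monocyte-like cells of the liver-labelled library, 24 of 281 reached it, 18 of the 281 lay between 50 and 200 per 10000, and the 24 held 77.0% of the class II UMIs of the class. All 27 UMIs of Cd209a in the class, a lectin gene of monocyte-derived and type 2 dendritic cells, were in those 24 cells. Flt3, another of the listed dendritic cell markers, was not confined to them, with 4 UMIs in the 24 cells and 23 in the other 257. The whole list of conventional dendritic cell markers stood at 406 CPM in the 24 cells and 231 CPM in the others. Cells with such markers numbered 15 of the 24 and 157 of the 257. They came from vehicle in 17 cells, the low dose in 7 and the high dose in 0. In macrophage-like cells of the same library, 20 of 184 cells reached the limit (14 of 62, 3 of 58 and 3 of 64 by group). They held 61.3% of the class II UMIs and all 9 Cd209a UMIs of the class. Macrophage markers stood at 21873 CPM in these 20 cells and at 15501 CPM in the other 164. Conventional dendritic cell markers stood at 699 and 393 CPM, and cells with such markers numbered 7 of the 20 and 26 of the 164. Of the spleen-labelled library, 89 of 281 macrophage-like cells reached it and held 80.7%, and 22 of 209 monocyte-like cells held 73.1%. Many macrophage-like cells lay between 50 and 200 per 10000, 45 of 184 in the liver-labelled library and 80 of 281 in the spleen-labelled library. Monocyte-like cells of the latter in that range numbered 24 of 209. Macrophage markers stood at 1890 CPM in those 22 cells and at 491 CPM in the other monocyte-like cells. The part of such cells in the treatment differences below was not tested.

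Macrophage-like cells held less class II after CBL0137 than after vehicle in both libraries. The leading genes of the 2 classes were partly different. They included C1qa, Vcam1, C1qb, Fcna, Cd5l and Spic in the liver-labelled library, and Arg1, Ccl8 and Pf4 in the larger cluster of the spleen-labelled library. The 2 classes may thus hold different macrophages. In the spleen-labelled library the summed level was 18007 CPM in 56 vehicle cells, 10620 in 106 low-dose cells and 7845 in 119 high-dose cells, or log2 ratios to vehicle of -0.76 (95% interval -0.80 to -0.73) and -1.20 (-1.23 to -1.17). In the liver-labelled library it was 8116 CPM in 62 vehicle cells, 2100 in 58 low-dose cells and 2826 in 64 high-dose cells, or log2 ratios of -1.95 (-2.11 to -1.80) and -1.52 (-1.69 to -1.36). Both treated groups lay below vehicle in each library, but the order of the doses was not the same. Both doses were set against the same vehicle cells. Markers of T cells stood at 7669 CPM in the T cell-like cells of the liver-labelled library below 100 class II UMIs per 10000. In its macrophage-like cells they stood at 3362, 2754 and 3698 CPM by group, at 37.8 CPM in the 20 cells above 100 class II UMIs per 10000 and at 3555 in the other 164. A T cell marker UMI was in 20, 25 and 14 of these macrophage-like cells by group. The remaining 42, 33 and 50 cells held 18298, 3174 and 4790 CPM of class II, so that both treated groups lay below vehicle among them too. No value without the richest cell is given for these remaining cells. The median depth of a cell was 1592, 2789 and 876 UMIs by group in the liver-labelled library, and its part in these levels was not tested.

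Classical chains, invariant chain and H2-DM all stood lower in macrophage-like cells of the spleen-labelled library, while the counts of Ciita did not settle a direction. In macrophage-like cells of the spleen-labelled library, H2-Aa had 2415, 2414 and 2602 UMIs in vehicle, low dose and high dose, which were 3256, 1671 and 1171 CPM. H2-Ab1 stood at 2747, 1614 and 1134 CPM, H2-Eb1 at 2501, 1402 and 1001 CPM, and Cd74 at 8593, 5345 and 3968 CPM. At the high dose these were log2 ratios of -1.48 (-1.56 to -1.40), -1.28 (-1.36 to -1.19), -1.32 (-1.41 to -1.23) and -1.11 (-1.16 to -1.07). The peptide exchange chains lay less far below vehicle at the high dose, H2-DMa by -0.61 (-0.79 to -0.42) and H2-DMb1 by -0.88 (-1.13 to -0.63). The counting interval of H2-DMa did not meet those of the classical chains, but it leaves out the spread between cells. The class joined a larger and a smaller cluster (described below), whose mix differed by group. H2-DMa stood at 385 CPM in the larger and 247 CPM in the smaller, and H2-Aa at 1990 and 470 CPM. The part of that mix in the gap between the genes was not tested. Of the 56 vehicle and 119 high-dose cells, 8 and 14 held as many class II UMIs as the rest of their group. Ciita, with 38, 77 and 106 UMIs, stood at 51.2, 53.3 and 47.7 CPM, log2 ratios of 0.06 (-0.52 to 0.66) and -0.10 (-0.65 to 0.47), which at these counts leaves room for a difference of about the size seen in H2-DMa. H2-O had 5, 6 and 5 UMIs, too few to read.

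A gene was called higher or lower when it differed from vehicle by at least 1.5-fold with at least 20 UMIs over both groups. In macrophage-like cells of the spleen-labelled library, 8 of the 10 members had 20 UMIs. At the low dose 6 of the 8 were called lower and 0 higher, where 8.73% of all 8101 genes tested were called lower, and the members' median log2 ratio was -0.71 against 0.04 over all genes. At the high dose 7 of the 8 were called lower (background 8.07%), with a median of -0.998 against 0.04. The member left out at both doses was Ciita, and H2-DMb2 was also not called at the low dose.

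The same members stood lower in macrophage-like cells of the liver-labelled library, which had fewer UMIs (a median of 1531 per cell). H2-Aa had 251 UMIs in vehicle, 49 at the low dose and 52 at the high dose, or 1247, 235 and 388 CPM, a log2 ratio of -2.40 (-2.88 to -1.96) and -1.68 (-2.14 to -1.25). Cd74 stood at 4182, 1158 and 1499 CPM. Ciita had 8, 1 and 0 UMIs, too few to read. Of the 6 members with 20 UMIs, 6 were called lower at the low dose (background 10.9%) and 5 at the high dose (background 19.9%), the exception being H2-DMa at -0.48 (-1.28 to 0.28), and the interval of H2-DMb1, with 17 and 4 UMIs, also crossed 0. The members' medians were -2.02 and -1.52 against 0.09 and -0.01 over all genes. A single vehicle cell held 38.9% of the class II UMIs of its group. Without the cell richest in class II of each group the levels were 5317, 1751 and 2185 CPM, which left both treated groups below vehicle.

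**Figure D4:**
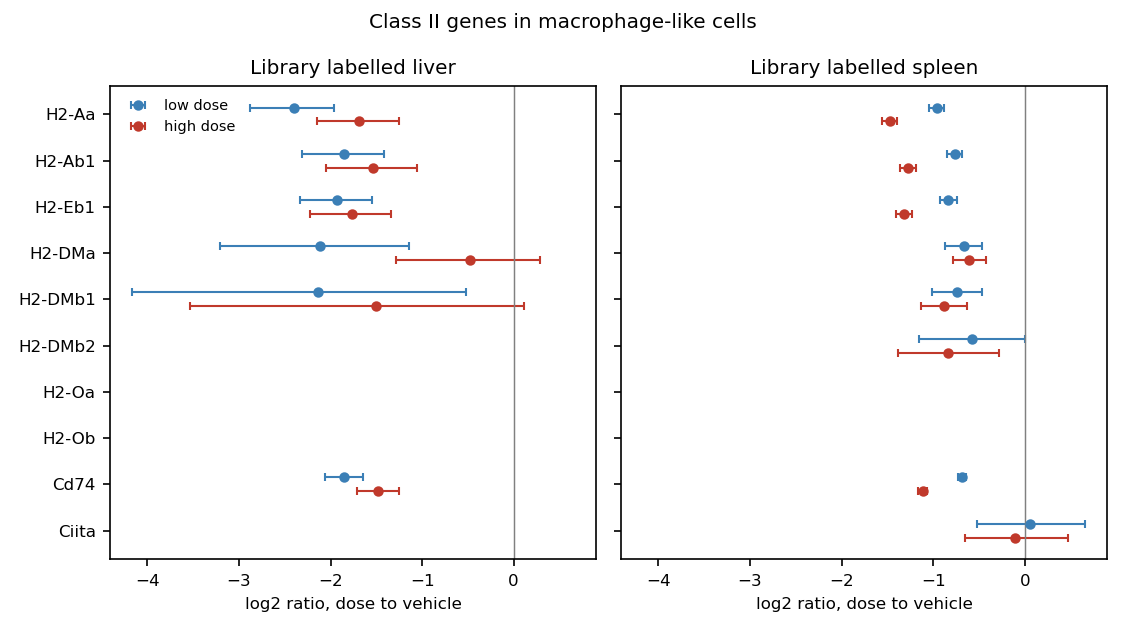
Log2 ratio of each dose to vehicle (horizontal axis) for the members with at least 20 UMIs over both groups and a UMI in each, in macrophage-like cells of each library, with exact 95% intervals. All members drawn lie left of 0 in the liver-labelled library, and in the spleen-labelled library Ciita lies at 0.06 and -0.10 while the classical chains lie between -0.77 and -1.48.

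The median cell and both clusters of the class showed the same direction. The median macrophage-like cell of the spleen-labelled library held 103 class II UMIs per 10000 in vehicle, 34.0 at the low dose and 30.7 at the high dose, and that of the liver-labelled library 43.9, 12.0 and 14.9. The ranges of cells overlapped widely, from 0 to 728, 878 and 700 per 10000 in the spleen-labelled library. The macrophage-like class of that library joined 2 clusters. The larger was led by Arg1, Ccl8 and Pf4 and went from 18713 CPM in 48 vehicle cells to 11957 and 9310 CPM. The smaller carried the Kupffer cell markers Clec4f, Vsig4 and Cd5l and went from 7234 CPM in 8 vehicle cells to 3599 in 26 low-dose and 3933 in 40 high-dose cells. The share of that cluster in the class was 14.3%, 24.5% and 33.6% by group. Within the larger cluster alone the log2 ratios were -0.65 (-0.68 to -0.61) and -1.01 (-1.04 to -0.97). A finer clustering gave the macrophage name to a further cluster of 120 cells, 117 of them from the dendritic cell-like class, which went the other way at the low dose, from 9405 CPM in 48 vehicle cells to 13552 in 56 low-dose and 5166 in 16 high-dose cells.

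Monocyte-like cells differed between the libraries. In the liver-labelled library the summed level was 2678 CPM in 158 vehicle cells, 1700 in 97 low-dose cells and 802 in 26 high-dose cells, or log2 ratios of -0.66 (-0.71 to -0.60) and -1.74 (-1.87 to -1.61). Of the high-dose UMIs 41.2% came from 1 cell, and without the richest cell of each group the levels were 2388, 1377 and 493 CPM. In the spleen-labelled library it was 3042, 3531 and 3049 CPM in 78, 87 and 44 cells, a log2 ratio of 0.22 (0.14 to 0.29) and 0.00 (-0.08 to 0.09). Among the members of the liver-labelled library the classical chains stood furthest below vehicle. At the high dose H2-Eb1 had 25 UMIs against 1040 in vehicle (39.9 against 317 CPM, log2 ratio -2.99, -3.62 to -2.42), whereas H2-DMa stood at 125 against 200 CPM (-0.68, -1.04 to -0.34) and Ciita at 22.4 against 25.0 CPM (-0.16, -1.09 to 0.67). Of 9 members with 20 UMIs, 4 were called lower and 0 higher at the low dose (backgrounds 7.91% and 6.61%) and 7 at the high dose (background 16.6%), the others then being H2-Oa and Ciita.

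The median monocyte-like cell of the liver-labelled library held 1.95, 2.12 and 1.62 class II UMIs per 10000 in vehicle, low dose and high dose. The typical cell thus stood at a like low level in the 3 groups. Cells above 100 per 10000 numbered 17 of 158, 7 of 97 and 0 of 26, the last group being small. The median depth of a cell was 15657, 15042 and 23970 UMIs. Cells above 100 per 10000 numbered 8 of 78, 10 of 87 and 4 of 44 among monocyte-like cells of the spleen-labelled library. There Ciita was the 1 of 8 members called higher at the low dose and 0 were called lower (backgrounds 12.1% and 8.19%), with 59 against 17 UMIs, or 58.3 against 21.1 CPM (log2 ratio 1.47, 0.67 to 2.34). At the high dose 1 of 7 was called, again Ciita (background 14.2% higher and 9.02% lower), at 36.9 CPM with an interval of -0.15 to 1.79. At both doses these counts were too near the backgrounds to set the members apart.

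**Figure D5:**
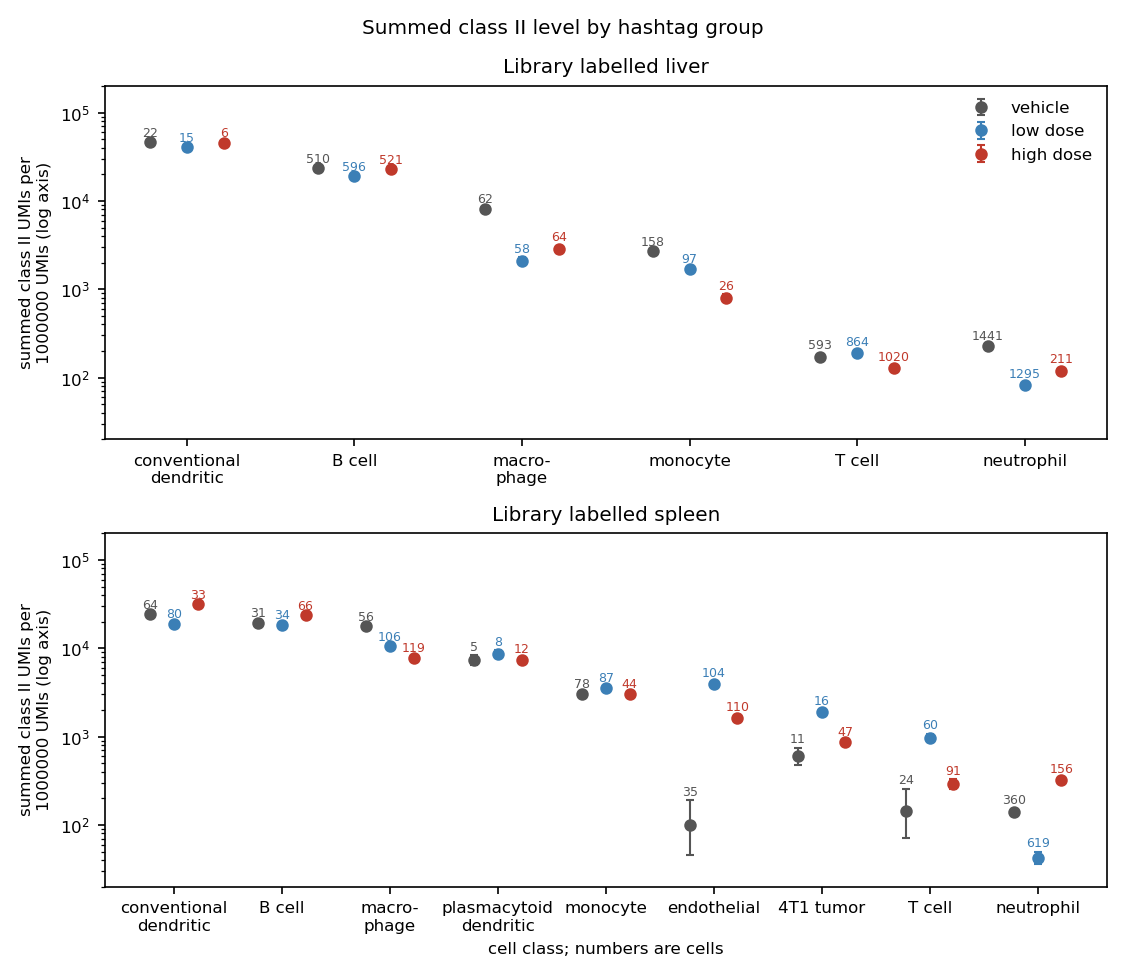
Summed class II level (vertical log axis, UMIs per 1000000 UMIs) by cell class and hashtag group, 1 panel per library, with exact 95% Poisson intervals and the number of cells above each point. Macrophage-like cells stood at 18007, 10620 and 7845 CPM in the spleen-labelled library, while B cell-like cells stood between 18234 and 23723 CPM in all 6 groups.

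B cell-like cells kept a high level in every group. In the liver-labelled library the summed level was 23541 CPM in 510 vehicle cells, 18966 in 596 low-dose cells and 22942 in 521 high-dose cells, or log2 ratios of -0.31 (-0.33 to -0.29) and -0.04 (-0.06 to -0.02). All 10 members lay below vehicle at the low dose, from H2-Eb1 at -0.22 (-0.27 to -0.16) to H2-Oa at -0.69 (-0.91 to -0.47), and Ciita stood at 299, 204 and 276 CPM. H2-Oa was the 1 of 10 members called lower at the low dose (background 5.62%), 0 were called higher (background 7.98%), and at the high dose 0 of 10 were called lower or higher (backgrounds 6.13% and 7.39%). The level in the spleen-labelled library was 19428, 18234 and 23723 CPM in 31, 34 and 66 cells, a log2 ratio of -0.09 (-0.18 to -0.01) and 0.29 (0.22 to 0.36), at median depths of 2483, 2531 and 4090 UMIs a cell. There 0 of 10 members were called at the low dose (background 19.3% higher and 13.8% lower), and at the high dose H2-DMb2 was called higher (background 14.7%) and H2-DMb1 lower (background 19.4%). These counts did not exceed the backgrounds.

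The B cell-like class of the liver-labelled library, lower at the low dose, differed in makeup between the groups. It joined 3 clusters, of 1010 cells at 24511 CPM, of 153 cells at 12449 CPM led by Pmepa1 and Arap2, and of 464 cells at 6414 CPM that were poor in RNA. The latter had a median of 822 UMIs, 21.3% mitochondrial UMIs and 85946 CPM of the nuclear RNA Malat1, and also the highest Ciita level of the 3, at 450 CPM against 260 in the large cluster. Of the 153 cells 1 was from vehicle and 144 were from the low dose, where they were 24.2% of the B cell-like cells. The large cluster held 82.2%, 41.9% and 65.5% of the class in vehicle, low dose and high dose. Within it the summed level was 24480, 23882 and 25024 CPM, log2 ratios of -0.04 (-0.06 to -0.01) and 0.03 (0.01 to 0.05). Since 1 cluster was nearly all low dose, another mix of cells and a change within cells cannot be told apart. The part of the makeup in the low-dose difference was not tested.

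Conventional dendritic cell-like cells were few. In the liver-labelled library 22, 15 and 6 cells held 45953, 40523 and 44989 CPM, log2 ratios of -0.18 (-0.23 to -0.14) and -0.03 (-0.09 to 0.03). H2-O had 119, 42 and 13 UMIs there, or 530, 248 and 225 CPM (-1.10, -1.64 to -0.58, and -1.24, -2.19 to -0.41). H2-DMa, H2-Oa and H2-Ob were the 3 of 10 members called lower at the low dose (background 15.6%), and H2-Oa and H2-Ob the 2 of 10 at the high dose (background 20.2%), counts too near those backgrounds to set the members apart. An unnamed cluster of 179 cells with H2-Ab1 and Irf8 among its leading genes held 9174 CPM and was left out of the class. It stood at 15961, 4245 and 8494 CPM by group.

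In the spleen-labelled library the class held 24363, 19061 and 31690 CPM in 64, 80 and 33 cells, log2 ratios of -0.35 (-0.41 to -0.30) and 0.38 (0.33 to 0.43). It rested on 3 of 18 markers (Batf3, Naaa and Wdfy4) and was mixed, and its median depth was 1092, 2367 and 8388 UMIs a cell by group. At a finer clustering 47 cells with 11 of the markers stood at 33033, 29148 and 36146 CPM in 14, 15 and 18 cells, and 117 further cells of the class fell into a cluster of 120 macrophage-like cells with a median of 1261 UMIs, at 10604 CPM. The log2 ratios of the 47 cells were -0.18 (-0.24 to -0.12) and 0.13 (0.08 to 0.18). In the whole class Ciita stood at 221, 176 and 416 CPM, and at the high dose H2-DMb2, H2-Oa and Ciita were the 3 of 9 members called higher (background 20.7%). At the low dose H2-DMb2 was the 1 of 9 called higher (background 17.7%) and H2-DMb1 the 1 called lower (background 12.1%), counts that did not exceed those backgrounds.

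Plasmacytoid dendritic cell-like cells, the interferon-producing dendritic cells of blood and tissue, numbered 5, 8 and 12 and held 7369, 8616 and 7321 CPM. The log2 ratios were 0.23 (0.01 to 0.45) and -0.01 (-0.21 to 0.20), and 7 of the 25 cells held 60.8% of the class II UMIs. H2-Aa was the 1 of 5 members called at the low dose (background for higher 17.3%), a count too near that background to set the members apart.

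Endothelial-like and 4T1 tumor-like cells, found in the spleen-labelled library, held low class II levels. Endothelial-like cells had 9 class II UMIs in 35 vehicle cells, 1222 in 104 low-dose cells and 815 in 110 high-dose cells, or 100, 3924 and 1637 CPM, log2 ratios of 5.29 (4.36 to 6.43) and 4.03 (3.10 to 5.17). All 6 members with 20 UMIs at the low dose and all 5 at the high dose were called higher (backgrounds 27.7% and 26.4%), where 9.54% of all genes were called lower at the low dose. With 9 vehicle UMIs over all members, a member could reach 20 UMIs only through the treated cells. These counts of calls are thus not read as a result. Yet 190 of the 249 cells had no class II UMI, and 1 low-dose cell held 65.0% of the UMIs of its group. The 4 cells above 100 per 10000 (0, 2 and 2 by group) held 70.9% of the class II UMIs. In them endothelial markers stood at 4957 CPM, macrophage markers at 3841 and monocyte markers at 2184, against 16054, 2262 and 317 CPM in the other 245 cells. Conventional dendritic cell markers stood at 207 against 256 CPM. Without the richest cell of each group the levels were 69.8, 1492 and 1265 CPM. Thinned to 500 UMIs, 9.24% (5.95 to 13.5) of endothelial-like cells had a class II UMI against 12.6% (8.05 to 18.4) of T cell-like cells of the same library, a share read here as background. Unthinned, the shares were 23.7% and 44.6%, at median depths of 2376 and 4510 UMIs. The median depth of endothelial-like cells was 1388, 2122.5 and 3462 UMIs by group, and 19.0% of their UMIs were mitochondrial. The part of depth and of cell quality in their levels was not tested. The background itself differed by group: T cell-like cells of this library held 143 (71.2 to 255), 972 (872 to 1080) and 290 (256 to 327) CPM in 24, 60 and 91 cells, with 50.7% of the low-dose UMIs in 1 cell (516 CPM without it). Other classes ran in another order, neutrophil-like cells at 139, 42.8 and 324 CPM and NK cell-like cells at 315, 88.6 and 2536 CPM. The part of that background in the differences of endothelial-like and tumor-like cells was not tested.

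4T1 tumor-like cells held 601, 1890 and 863 CPM in 11, 16 and 47 cells (78, 744 and 1834 UMIs), log2 ratios of 1.65 (1.31 to 2.01) and 0.52 (0.19 to 0.87). 1 cell held 65.4% of the vehicle UMIs and 1 cell 45.0% of the low-dose UMIs, and the levels without them were 247 and 1141 CPM, against 789 CPM at the high dose without its richest cell. None of the 74 cells reached 100 per 10000, and the medians were 1.39, 5.97 and 4.13. All 6 members with 20 UMIs were called higher at the low dose (background 25.6%), and 3 of 6 at the high dose (background 29.3%), where H2-DMa was called lower (background 21.2%). Of the 78 vehicle UMIs 51 were in 1 cell, and few members could reach 20 UMIs without the treated cells. These counts of calls are thus weak. Ciita had 1, 1 and 6 UMIs. Thinned to 500 UMIs, 18.9% (10.7 to 29.7) of tumor-like cells had a class II UMI, an interval that meets that of T cell-like cells, and 91.9% had one without thinning. Thinned to 1000 UMIs the shares were 43.2% (31.8 to 55.3) in tumor-like and 14.9% (10.0 to 21.1) in T cell-like cells, intervals that did not meet. The reading thus changed with the depth, and 47 of the 74 tumor-like cells were from the high dose. Tumor-like cells were deep, with a median of 13960, 29313 and 44574 UMIs by group, and the part of free RNA in their counts was not tested.

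Vehicle cells of the 2 libraries were compared class by class, which keeps the treatment out. The macrophage-like classes of the 2 libraries had partly different leading genes, so their ratio may not compare 1 kind of macrophage. Macrophage-like cells stood 1.15 higher on the log2 scale in the spleen-labelled library (1.08 to 1.22; 18007 against 8116 CPM), with H2-Ab1 at 1.53 (1.31 to 1.75) and Ciita at 0.37 (-0.75 to 1.68). That difference was not seen without the cells of the liver-labelled class that held a T cell marker UMI, when the ratio was -0.02 (-0.10 to 0.06; 18007 against 18298 CPM). This left 42 cells of the liver-labelled library and all 56 of the other. Of these 56 cells 19 also held a T cell marker UMI, and the 37 without one held 17808.5 CPM. Over all vehicle cells of the class but the richest of each library, the levels were 16867 against 5317 CPM. No such value is given for the 42 cells, so the part of 1 cell in the ratio of -0.02 is not known. B cell-like cells stood at -0.28 (-0.34 to -0.21) and monocyte-like cells at 0.18 (0.12 to 0.25). Conventional dendritic cell-like cells stood at -0.92 (-0.96 to -0.87), and there the H2-DM chains parted, with H2-DMb2 at -2.37 (-3.10 to -1.69) and H2-DMb1 at 0.87 (0.41 to 1.34). H2-O stood at -2.99 (-3.85 to -2.23) in the same cells. Of the 64 vehicle cells of the spleen-labelled class 47 fell into the macrophage-like cluster at the finer clustering. Among the 14 that kept the dendritic name there, against 22 of the liver-labelled library, the sum stood at -0.48 (-0.52 to -0.43), H2-DMb2 at -2.06 (-2.87 to -1.33), H2-DMb1 at 1.27 (0.80 to 1.75) and H2-O at -2.49 (-3.37 to -1.71). The 2 libraries are 1 pooled sample each, so the organ and the library cannot be told apart.

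The other genes of the pathway were read from lists of 25 rows. In macrophage-like cells of the spleen-labelled library, 23 of the 25 had 20 UMIs, and at the low dose 3 were called higher (Nfyb, Nfyc and Creb1) and 1 lower (Socs1), against 12.6% and 8.73% of all genes. At the high dose Creb1 was called higher and 3 lower (Rfx5, Ifngr1 and Socs1), against 15.1% and 8.07%. Of the 5 genes that process antigen and the invariant chain 0 were called at either dose. Ctss, the cathepsin that trims the invariant chain, stood at 2384, 2262 and 2236 CPM (high dose -0.09, -0.17 to -0.01), and Ctsl, a further cathepsin, stood at a log2 ratio of -0.49 (-0.60 to -0.37) at the high dose.

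Ifng, whose protein induces Ciita in many cell types, stood at 62.6 CPM in T cell-like cells of the spleen-labelled library and at 1.49 CPM in those of the liver-labelled library. In B cell-like cells of the liver-labelled library, 23 of the 25 pathway rows had 20 UMIs, of which 3 were called higher and 2 lower at the low dose, against 7.98% and 5.62% of all genes, among the latter Ifi30 (-0.59, -0.69 to -0.49), the thiol reductase that opens disulfide bonds of antigens. H2-Eb2, whose promoter shared the paired letters, had UMIs at 15.1 CPM in B cell-like cells of the liver-labelled library and 11.1 in those of the spleen-labelled library, and 0 UMIs in macrophage-like and monocyte-like cells of both.

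Among 8355 genes with at least 200 UMIs in each library, those whose level ran most like the class II sum over 55 profiles of class, library and hashtag group were Fgd2 (Pearson r = 0.90), Ly86 (0.88), Ifi30 (0.87), Cd40 (0.84), Cd86 (0.84), Plekho1 (0.83), Scpep1 (0.82), Cd180 (0.81), Irf5 (0.81) and Ctsh (0.81). Profiles of a class share cells of like type and depth, so these values are descriptions. The members themselves ranged from H2-Ob at 0.67 and H2-Oa at 0.68 to 0.99 for Cd74 and the classical chains, with Ciita at 0.90. Each member is part of the sum it was set against, so these values cannot be compared with those of the other genes.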

How the data were processed

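Cells of both organs, described in the labels as leukocytes, were profiled by droplet 3′ single-cell RNA-seq with hashtag antibodies. The authors aligned reads with Cell Ranger (6.0.0 per the submitters' processing notes, which name mm10) and deposited, for each library, filtered UMI counts of genes and hashtags without normalization. From these deposited counts, barcodes were assigned to treatments with HTODemux (quantile 0.99), which left out 540 negative and 616 multiple barcodes in the liver-labelled library and 1627 and 215 in the spleen-labelled library. Scrublet called 252 barcodes (2.63%) doublets in the liver-labelled library and 0 in the spleen-labelled library, where it did not work, and none were removed for it. Cells were clustered with Seurat 5.3.0 and sctransform 0.4.2 in R 4.3.3 (30 principal components, resolution 0.8) without the 10 members. A cluster was named where at least 3 listed markers were raised by 1 log2 unit and found in 20% of cells. UMIs were summed per class and hashtag group and divided by all UMIs of those cells. Ratios have exact conditional binomial intervals, levels exact Poisson intervals and shares Clopper-Pearson intervals, all at 95%, computed with scipy 1.17.1 in Python 3.11.15. They cover counting error only. A count of 0 was read as up to 3 counts. Depth was 17333148 to 26508853 UMIs per hashtag group in the liver-labelled library and 7130127 to 10589251 in the spleen-labelled library. The scripts were tested on simulated data.

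With 1 pooled sample per group no test was run, and a gene was called by size (1.5-fold, at least 20 UMIs over both groups). The members were given by name. Members, marker and pathway lists, motifs and comparisons were chosen with earlier results of these data known. The result of 1 gene of the pathway list is not reported here. Named genes were the members, the pathway list, and the 10 genes whose log2(CPM + 10) profile correlated best with the class II sum. Other hashtag callers, a cell filter (200 genes, under 10% mitochondrial UMIs), Scrublet removal, resolution 1.6, a marker gate per cell, a mean over cells and, chosen after seeing the data, leaving out single clusters or cells, or cells with T cell marker UMIs, were tried.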

Additional observations from a re-analysis of the deposited data

Results flagged for a closer look

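The sum over the 10 class II genes was compared across libraries in B cell-like, conventional dendritic cell-like, macrophage-like and monocyte-like cells. In 2 cases it lay on opposite sides of vehicle in the 2 libraries with both counting intervals leaving out 0. With 1 pooled sample behind each group, the difference was not tested. In monocyte-like cells at the low dose the log2 ratio to vehicle was -0.66 (1700 against 2678 CPM) in the liver-labelled library and 0.22 (3531 against 3042 CPM) in the spleen-labelled library. Cells above 100 class II UMIs per 10000 numbered 7 of 97 against 17 of 158 in the former and 10 of 87 against 8 of 78 in the latter.

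In B cell-like cells at the high dose the log2 ratio was -0.037 (22942 against 23541 CPM) in the liver-labelled library and 0.29 (23723 against 19428 CPM) in the spleen-labelled library. The share of cells poor in RNA went from 17.6% to 33.0% of the class between vehicle and high dose in the liver-labelled library, and without that cluster the ratio was 0.036. Within the large cluster it was 0.03 and within the cluster poor in RNA -0.27.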

How the results depend on the processing

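The lower class II sum of macrophage-like cells after CBL0137 kept its direction in both libraries at both doses under every alternative run. Not every alternative could change it in both libraries. Scrublet called 0 barcodes in the spleen-labelled library. The Kupffer cell cluster was left out only there, and cells with a T cell marker UMI only in the liver-labelled library. The sign turned under some in B cell-like cells of the liver-labelled library at the high dose and of the spleen-labelled library at the low dose, in conventional dendritic cell-like cells of the liver-labelled library at the high dose, and in macrophage-like cells compared between libraries. All values are log2 ratios. In B cell-like cells of the liver-labelled library at the high dose (main value -0.04) the sign turned with MULTIseqDemux (0.10), the dominant hashtag (0.10), the cell filter (0.031), resolution 1.6 (0.018), the marker gate (0.10) and without the cluster poor in RNA (0.036), and the mean over cells gave -0.19. At the low dose (-0.31) the values were -0.19 with MULTIseqDemux, -0.20 with the dominant hashtag, -0.27 with the cell filter, -0.17 with the gate, -0.48 as a mean over cells and -0.26 without the cluster poor in RNA. For the spleen-labelled library the high dose (0.29) gave 0.45 with MULTIseqDemux, 0.42 with the dominant hashtag and 0.64 with the gate, and the low dose (-0.09) turned to 0.25 with the gate, 0.18 as a mean over cells and 0.13 without the cell richest in class II of each group.

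In macrophage-like cells of the liver-labelled library the low dose (-1.95) gave -1.63 with the dominant hashtag, -1.19 with the gate, -1.13 as a mean over cells, -1.60 without the richest cells and -2.53 without cells with a T cell marker UMI, and the high dose (-1.52) gave -1.23, -1.23, -1.26, -1.28 and -1.93 in the same order. In the spleen-labelled library the low dose (-0.76) gave -0.70 with MULTIseqDemux, -0.84 with the dominant hashtag, -0.73 with the cell filter, -0.67 at resolution 1.6, -0.39 with the gate, -0.72 as a mean over cells and -0.65 without the Kupffer cell cluster. The high dose (-1.20) gave -1.26 with MULTIseqDemux, -1.06 with the cell filter, -1.14 at resolution 1.6, -1.003 as a mean over cells and -1.01 without that cluster.

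In conventional dendritic cell-like cells of the liver-labelled library the low dose (-0.18) gave -0.26 with the dominant hashtag, -0.13 with the gate, -0.37 as a mean over cells, -0.86 with the unnamed cluster of 179 cells added and -0.28 without the richest cells. The high dose (-0.03) gave -0.26, 0.16, -0.10, -1.03 and -0.14 in the same order. In the spleen-labelled library the low dose (-0.35) gave -0.17 with MULTIseqDemux, -0.29 with the cell filter, -0.18 at resolution 1.6, -0.30 with the gate and -0.49 as a mean over cells. The high dose (0.38) gave 0.017, 0.44, 0.13, 0.26 and 0.50 in the same order, and 0.45 without the richest cells.

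The ratio of the spleen-labelled library to the liver-labelled library in vehicle cells was -0.28 for B cell-like cells and -0.18, -0.14, -0.53 and -0.15 with MULTIseqDemux, the dominant hashtag, the gate and the mean over cells. For conventional dendritic cell-like cells (-0.92) it was -0.50 with MULTIseqDemux, -0.84 with the cell filter, -0.48 at resolution 1.6, -0.54 with the gate, -1.50 as a mean over cells, -0.26 with the unnamed cluster added and -1.01 without the richest cells. For macrophage-like cells (1.15) it was 1.36, 1.43 and 0.97 with MULTIseqDemux, the dominant hashtag and the gate, 1.67 without the richest cells, and -0.023 without cells of the liver-labelled library with a T cell marker UMI. Among the other classes the sign turned for tumor-like cells at the high dose with the gate (-0.052), endothelial-like cells at the low dose with the gate (-0.44), plasmacytoid dendritic cell-like cells at the low dose with the gate (-1.30), and monocyte-like cells as a mean over cells at the low dose in the spleen-labelled library (-0.0023) and between libraries (-0.13). The cause of these shifts was not tested. No paired analysis was possible because each group was 1 pooled sample in each library.

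With 6 to 80 cells behind the dendritic cell-like groups and 9 class II UMIs in vehicle endothelial-like cells, counting error and single cells limit those values, as does which clusters a class joins. Mice were pooled, so the spread between animals is unknown, and organ and library cannot be told apart.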
